A study of Mus musculus with 6 samples.

Results

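Macrophages that live in a tissue for long periods carry receptors that freshly arrived monocytes largely lack. The 10 genes described are the resident macrophage genes Folr2, Lyve1, Fcrls, Olfml3, Mrc1, Cd163 and Siglec1, the receptor tyrosine kinases Mertk and Axl, and their ligand Gas6. They were picked by name among the 23284 genes listed for each library, because their levels were uneven over the libraries. All values of the 10 genes in these libraries are therefore descriptions, and a wide spread of these genes is not a finding. The RNA came from cells of the calvaria (skull vault) of CX3CR1-EGFP mice, sorted for EGFP; in these mice a fluorescent protein marks cells that use the fractalkine receptor gene. All mice had received lipopolysaccharide (LPS), a bacterial product that provokes inflammation, at the calvarial periosteum. In 3 libraries the mice had also received 10 mg/kg CTLA4-Ig (abatacept), a fusion protein that binds CD80 and CD86, and in 3 libraries 10 mg/kg whole human IgG as control. Cells were sorted 5 days later. The labels give neither age, sex nor the number of mice behind a library, so p-values measure the spread between libraries.

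AXL and MERTK, with TYRO3, form the TAM family of receptor tyrosine kinases. Their ligands, GAS6 and protein S, bind phosphatidylserine on dying cells with their vitamin K dependent domain and bridge the dying cell to the receptor. In macrophages this bridge drives the uptake of apoptotic cells and restrains the response to LPS and interferon. The other genes are textbook markers of resident macrophages: FOLR2 is a folate receptor, LYVE1 binds hyaluronan, MRC1 is the mannose receptor, CD163 takes up haemoglobin bound to haptoglobin, and SIGLEC1 (sialoadhesin) binds sialic acids. Fcrls and Olfml3 are known in mice from microglia, the resident macrophages of the brain.

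The upstream sequences of the 3 genes with the widest spread over the libraries are shown so that they can be compared, since Fcrls and Olfml3 had a similar pattern over the libraries, at different levels. They are the 250 bases before each start in RefSeq, build GRCm38.p6, written 5′ to 3′ on the gene's strand, which is the minus strand for all of them. The Fcrls window lies at chr3:87263525-87263774, that of Olfml3 at chr3:103738002-103738251, and Folr2 has 2 windows, at chr7:101857191-101857440 before an upstream start and at chr7:101845332-101845581 before a downstream start. The start used for Fcrls lies inside the gene's annotated span (chromosome 3, 87250736 to 87263765), so most of its window does too. The window before the downstream Folr2 start likewise lies within its gene. Capitals mark matches on either strand. The motifs searched were GAGGAA, a core of the motif of the myeloid transcription factor PU.1, then TGCTGA, a core of the MAF motif, and TGANTCA, the motif of AP-1.
Fcrls: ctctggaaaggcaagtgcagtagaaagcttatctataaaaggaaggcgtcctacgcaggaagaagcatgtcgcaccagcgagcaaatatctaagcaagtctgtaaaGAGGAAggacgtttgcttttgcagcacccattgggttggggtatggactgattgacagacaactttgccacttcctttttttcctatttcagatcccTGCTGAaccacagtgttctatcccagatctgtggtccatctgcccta
Olfml3: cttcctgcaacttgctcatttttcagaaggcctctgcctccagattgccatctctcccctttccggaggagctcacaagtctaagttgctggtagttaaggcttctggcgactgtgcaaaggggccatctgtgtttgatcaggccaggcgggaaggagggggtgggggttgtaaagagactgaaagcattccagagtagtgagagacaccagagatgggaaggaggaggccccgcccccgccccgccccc
Folr2 upstream start: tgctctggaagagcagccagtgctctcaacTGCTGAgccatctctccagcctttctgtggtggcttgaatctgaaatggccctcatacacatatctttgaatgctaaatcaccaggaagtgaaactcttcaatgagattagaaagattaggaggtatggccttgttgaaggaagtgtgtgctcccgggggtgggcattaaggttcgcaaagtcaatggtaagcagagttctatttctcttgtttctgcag
Folr2 downstream start: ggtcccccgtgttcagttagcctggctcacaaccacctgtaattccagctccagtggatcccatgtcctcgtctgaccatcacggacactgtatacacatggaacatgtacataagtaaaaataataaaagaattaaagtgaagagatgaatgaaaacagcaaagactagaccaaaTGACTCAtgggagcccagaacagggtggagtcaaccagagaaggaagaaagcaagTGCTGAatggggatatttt
The Fcrls window held GAGGAA at position -144 and TGCTGA at -47, counted back from the start to the first base of the match. The Olfml3 window held none of the motifs searched. The Folr2 windows held TGCTGA at -220 from the upstream start, and TGCTGA at -19 and TGANTCA at -74 from the downstream start. Of all 32851 promoter windows of this length, 23.3% held GAGGAA, 16.1% TGCTGA and 6.75% TGANTCA. The interferon-stimulated response element, searched as GAAA, any 2 bases and GAAA again, was in 2.98% of them and in 0 of the 9 windows of the 8 genes with an entry (not Lyve1 and Siglec1). Among the others, Mrc1 had 3 matches to GAGGAA, and Axl had 1, in a window that also reaches into its gene. Mertk, Cd163 and Gas6 had no match to any of the 4. These are matches of letters, and binding was not measured.

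Each library listed values in FPKM, that is fragments per kilobase of transcript relative to the size of the library, which can be compared between genes. From the spacing of low values the CTLA4-Ig libraries held about 9370000 to 11400000 fragments, and the control IgG libraries about 9500000 to 10300000. All 10 genes were low in these cells, with means of 0.804 to 3.96 FPKM over the 6 libraries. For Folr2, with a short transcript, this amounts to about 5 to 64 fragments per library, for Mertk to about 12 to 73 and for Axl to about 115 to 190. Fragments were not estimated for Olfml3, whose matched transcript of 5465 bases is longer than its annotated span of 2608 bases. General macrophage genes were well above the levels of the 10 genes. Csf1r, the M-CSF receptor gene, stood at 140 to 171 FPKM with CTLA4-Ig, against 142 to 193 with control IgG. Adgre1, which encodes the macrophage marker F4/80, stood at 38.3 to 46.5 FPKM with CTLA4-Ig, against 43.3 to 49.8 with control IgG. Timd4 and Vsig4, which mark many long-lived resident macrophages, did not exceed 0.305 FPKM in any library.

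Control library 1 stood apart from the rest in many genes, and gene groups that bear on the 10 genes were only a part of this. It was the highest library for 2706 of all 10865 genes tested, where each other library was so for 1331 to 2044. Its summed erythroid markers were also the lowest, at 8.80 FPKM. Summed interferon-stimulated genes stood at 147 to 193 FPKM with CTLA4-Ig, against 95.4 FPKM in control library 1 and 185 and 212 FPKM in the other controls. The sum of 10 glucocorticoid response genes was 287 to 355 FPKM with CTLA4-Ig, against 529 FPKM in control library 1 and 298 and 282 FPKM in the other controls. Among the 10 genes, which were chosen for their unevenness, CTLA4-Ig library 3 was the highest library for 6, and control libraries 1 and 2 were the lowest for 4 each and control library 3 for 2.

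The folate receptor gene Folr2 (chromosome 7, 101839988 to 101857190) stood at 1.26, 3.29 and 5.59 FPKM with CTLA4-Ig, against 0.481, 1.11 and 1.85 FPKM with control IgG. CTLA4-Ig libraries 2 and 3 were above every control, and CTLA4-Ig library 1 lay among the controls. The log2 fold change was 0.95 ± 0.41 (SE, n = 3 each), the highest of the 10 genes. Leaving out CTLA4-Ig library 3 gave 0.59, and leaving out control library 1 gave 0.71. All fold changes given are of log2(FPKM + 1), and the added 1 makes the change of genes as low as these look smaller.

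Lyve1, the hyaluronan receptor gene (chromosome 7, 110850607 to 110862953), stood at 1.29, 2.08 and 1.67 FPKM with CTLA4-Ig, against 0.963, 1.01 and 1.09 FPKM with control IgG. It was the 1 gene of the 8 tested whose groups did not overlap, with a log2 fold change of 0.40 ± 0.15 (SE, n = 3 each). Over all genes tested, 6.50% lay higher without overlap in this way and 5.69% lower, so 1 of 8 is near that background. Lyve1 is also a gene of lymphatic and sinusoidal endothelium. Of 12 endothelial markers, the lymphatic Prox1 and Flt4 did not exceed 0.0858 FPKM in any library and the sinusoidal Stab2 did not exceed 0.0671 FPKM. Cdh5, of endothelial junctions, stood at 2.93 to 3.68 FPKM with CTLA4-Ig, against 2.31 to 3.61 with control IgG. Pecam1, which leukocytes share, stood at 14.6 to 18.7 FPKM with CTLA4-Ig, against 12.8 to 16 with control IgG. The part of endothelial cells in the level of Lyve1 was not tested.

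Fcrls, an Fc receptor-like gene (chromosome 3, 87250736 to 87263765), stood at 1.91, 2.56 and 9.43 FPKM with CTLA4-Ig, against 2.06, 0.921 and 2.43 FPKM with control IgG. Olfml3, which encodes a secreted olfactomedin-like protein (chromosome 3, 103735394 to 103738001), stood at 0.852, 0.905 and 5.47 FPKM with CTLA4-Ig, against 1.10, 0.569 and 0.462 FPKM with control IgG. Both were high in CTLA4-Ig library 3 alone, at 3.68 times the next library for Fcrls and 4.98 times for Olfml3, and the other CTLA4-Ig libraries lay within or near the control range. The log2 fold change of Fcrls was 0.81 ± 0.49 (SE, n = 3 each), and 0.24 without CTLA4-Ig library 3. That of Olfml3 was 0.75 ± 0.49, and 0.15 without that library.

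Mrc1, the mannose receptor gene (chromosome 2, 14229414 to 14332023), stood at 3.23, 4.37 and 4.94 FPKM with CTLA4-Ig, against 3.14, 2.51 and 4.10 FPKM with control IgG. The groups overlapped, with a log2 fold change of 0.29 ± 0.18 (SE, n = 3 each), or 0.16 without control library 2 and 0.18 without CTLA4-Ig library 3. Cd163, the haemoglobin scavenger receptor gene (chromosome 6, 124304636 to 124330529), stood at 1.84, 2.13 and 4.0 FPKM with CTLA4-Ig, against 2.31, 1.82 and 2.93 FPKM with control IgG. Its log2 fold change was 0.09 ± 0.24 (SE, n = 3 each), and changed sign to -0.16 without CTLA4-Ig library 3 and to -0.03 without control library 2. The sialoadhesin gene Siglec1 (chromosome 2, 131067801 to 131086778) was the lowest of the 10, at 0.924, 0.860 and 0.578 FPKM with CTLA4-Ig, against 0.527, 0.876 and 1.06 FPKM with control IgG. Its log2 fold change was -0.02 ± 0.14 (SE, n = 3 each), between -0.14 and 0.07 when single libraries were left out and 0.03 after rescaling the libraries to equal mononuclear phagocyte markers. Siglec1 is a known interferon-induced gene, and its lowest value was in control library 1, where the interferon-stimulated genes were also lowest. CTLA4-Ig library 3 was nearly as low for Siglec1, and the part of interferon in its level was not tested.

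**Figure D1:**
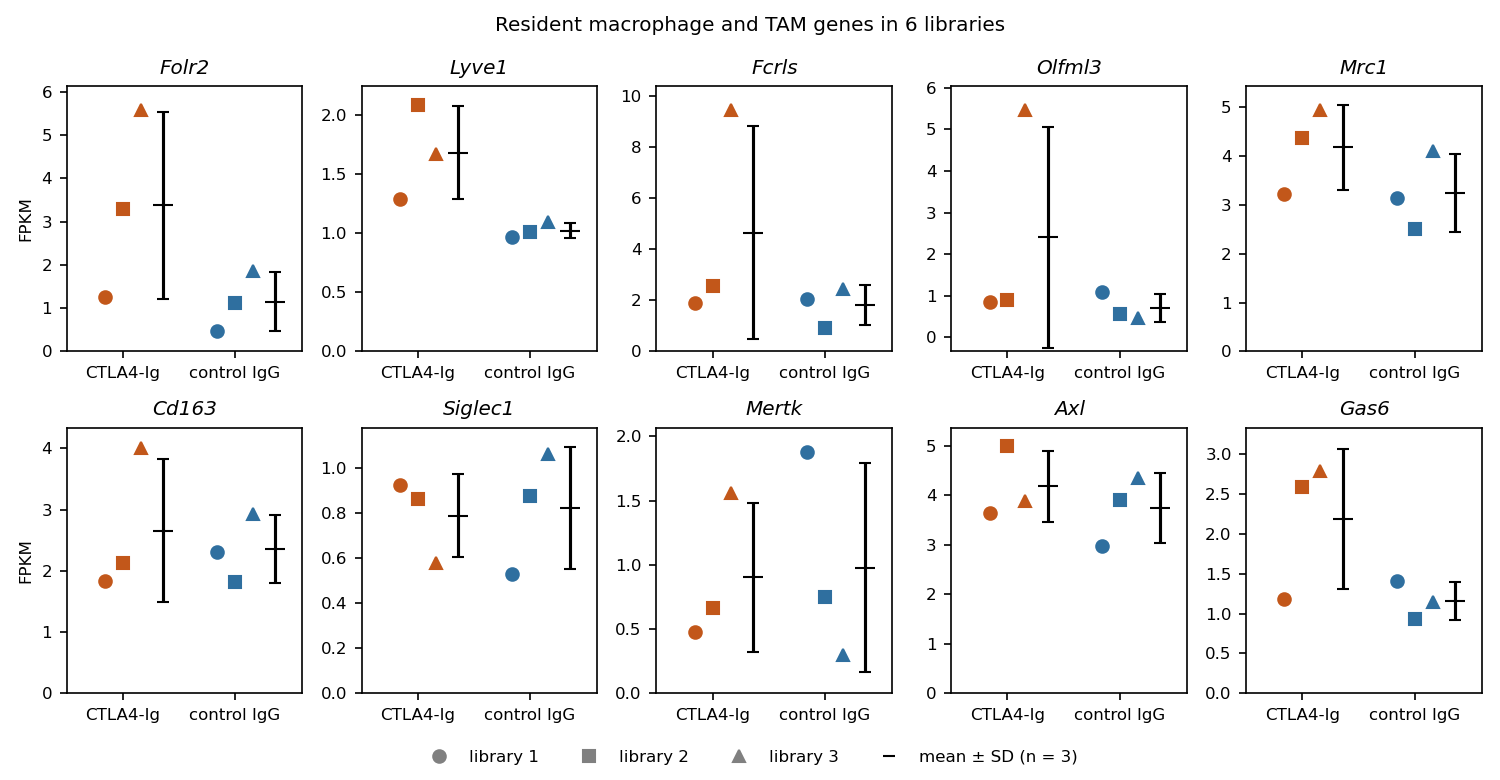
Levels of the 10 genes in FPKM (y axis, from 0, or just below it for Olfml3) in the CTLA4-Ig libraries (orange, left) and control IgG libraries (blue, right), with a circle, a square and a triangle for libraries 1, 2 and 3 and the mean ± SD of 3 libraries as bars. CTLA4-Ig library 3 stands apart for Fcrls (9.43 FPKM) and Olfml3 (5.47 FPKM), while the groups do not overlap for Lyve1.

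Of the TAM receptors, Axl (chromosome 7, 25756500 to 25788924) had the highest mean of the 10 genes. It stood at 3.64, 5.00 and 3.89 FPKM with CTLA4-Ig, against 2.97, 3.91 and 4.35 FPKM with control IgG, with the narrowest log2 range of the 10 genes after Siglec1. Its log2 fold change was 0.13 ± 0.15 (SE, n = 3 each), or 0.02 when CTLA4-Ig library 2 was left out, and 0.01 and 0.22 when control libraries 1 and 3 were left out in turn. Mertk (chromosome 2, 128698915 to 128803162) stood at 0.479, 0.667 and 1.56 FPKM with CTLA4-Ig, against 1.88, 0.750 and 0.301 FPKM with control IgG. Its high libraries were 1 of each group, CTLA4-Ig library 3 and control library 1, and its lowest was control library 3. The log2 fold change of Mertk was -0.02 ± 0.33 (SE, n = 3 each), between -0.28 without control library 3 and 0.29 without control library 1, and 0.02 after the same rescaling. The level of Axl was 2.49 to 7.60 times that of Mertk with CTLA4-Ig, against 1.58 to 14.5 times with control IgG. Tyro3, the remaining receptor of the family, did not exceed 0.141 FPKM in any library.

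The ligand gene Gas6 (chromosome 8, 13465374 to 13494535) stood at 1.18, 2.59 and 2.78 FPKM with CTLA4-Ig, against 1.41, 0.932 and 1.14 FPKM with control IgG. CTLA4-Ig libraries 2 and 3 were above every control and CTLA4-Ig library 1 was not, the same division as for Folr2. The log2 fold change was 0.52 ± 0.23 (SE, n = 3 each), between 0.38 without CTLA4-Ig library 3 and 0.77 without CTLA4-Ig library 1. Pros1, which encodes the other main ligand, protein S, stood at 9.50 to 11.2 FPKM with CTLA4-Ig, against 9.84 to 12.2 with control IgG. The level of Pros1 was thus 3.42 to 9.49 times that of Gas6 with CTLA4-Ig, against 8.42 to 10.7 times with control IgG. Lgals3, the gene of galectin-3, which has been described as a MERTK ligand, was far higher, at 496 to 586 FPKM with CTLA4-Ig, against 534 to 591 with control IgG. Gas6 overlaps Tmem255b in the annotation, and that gene was listed at 0 in every library under its older name Fam70b.

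**Figure D2:**
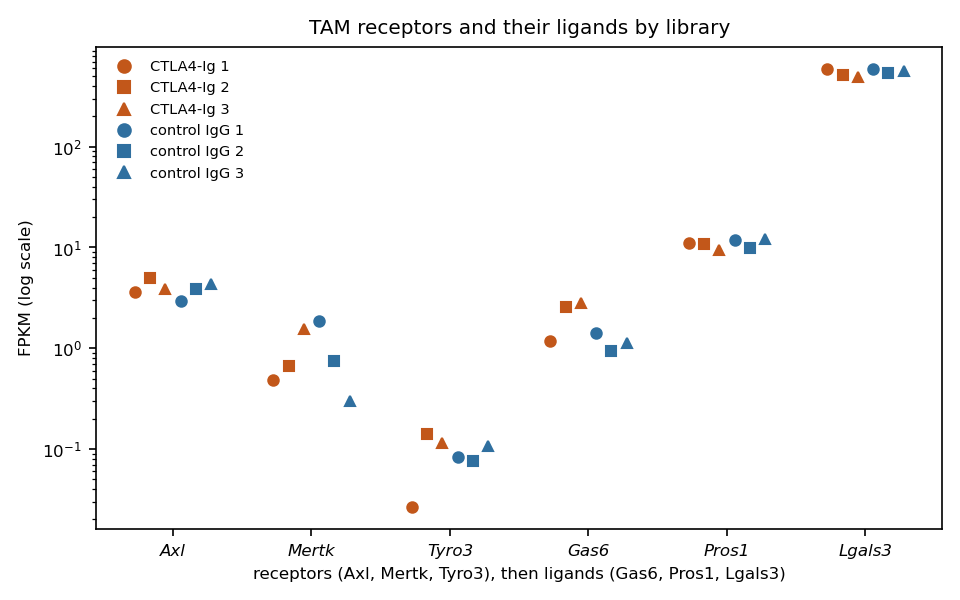
Levels in FPKM (y axis, log scale) of the TAM receptor genes Axl, Mertk and Tyro3 and of the ligand genes Gas6, Pros1 and Lgals3, with a circle, a square and a triangle for libraries 1, 2 and 3, CTLA4-Ig in orange left of control IgG in blue. Axl is above Mertk in each library, Tyro3 stays at or below 0.141 FPKM, and Pros1 is above Gas6 in each library.

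Over the whole table no gene passed limma's test at a Benjamini-Hochberg adjusted p under 0.05 among the 10865 whose mean reached 1 FPKM (percent called 0). The lowest adjusted p in limma was 0.7196, and those of the tested genes of the 10 were 0.7510 to 0.9771. Without adjustment, p was under 0.05 for 444 genes with a higher level (4.09%) and 215 with a lower one (1.98%). Of the 10 genes described here 8 entered that test, and Mertk (mean 0.940 FPKM) and Siglec1 (mean 0.804 FPKM) were below the filter, while Lyve1 (1.35 FPKM) and Olfml3 (1.56 FPKM) were the nearest above it. The filter is on the mean over both groups, so a gene high in 1 group is more likely to pass it. The log2 fold change was positive for 8 of the 10 genes measured, and -0.02 for the 2 below the filter, Mertk and Siglec1. All 8 tested genes were thus positive, against 47.7% of all genes tested, with medians of 0.46 and -0.01. As the genes were chosen on these libraries, this is a description and no test. The median of the tested genes was 0.24 without CTLA4-Ig library 3, where Olfml3 fell below the filter. Neutrophil markers were higher in sum in each CTLA4-Ig library than in any control: their summed level was 175000 to 241000 FPKM with CTLA4-Ig, against 135000 to 154000 with control IgG, with 13 of 15 positive, 9 with an unadjusted limma p under 0.05 and a median log2 fold change of 0.53. Summed mononuclear phagocyte markers stood at 1430 to 1660 FPKM with CTLA4-Ig, against 1570 to 1820 with control IgG, with 7 of 8 negative and a median of -0.09. The part of these cell types in the values of the 10 genes was not tested, and in sorted bulk samples fewer cells of a type and less RNA per cell cannot be told apart.

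**Figure D3:**
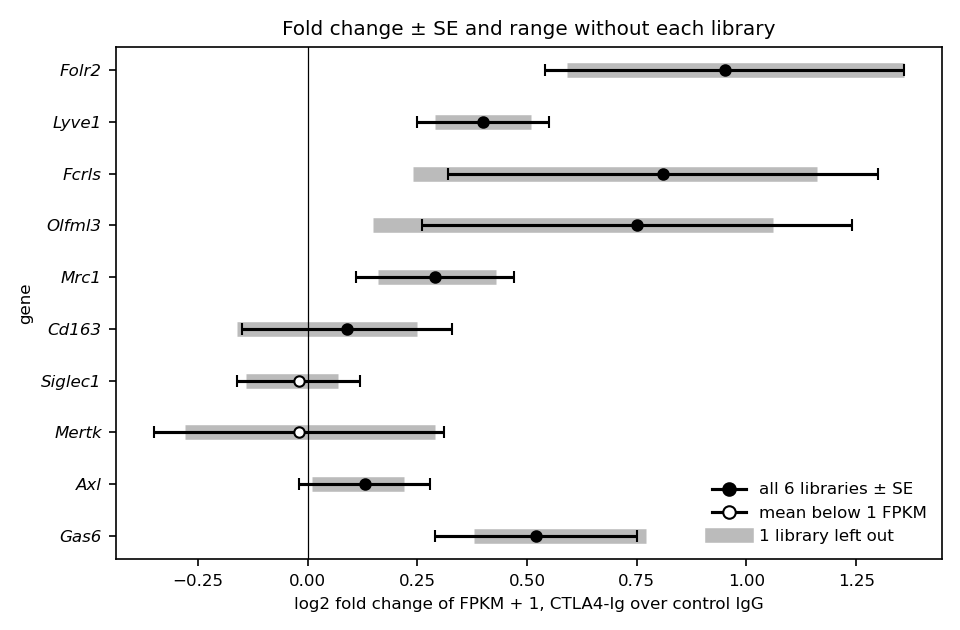
Log2 fold change of FPKM + 1, CTLA4-Ig over control IgG (x axis), for each of the 10 genes (y axis), with its SE from limma. Grey bars span the values with 1 library left out, and open circles mark the 2 genes with a mean below 1 FPKM. The grey bars of Cd163, Siglec1 and Mertk cross 0, and those of Fcrls and Olfml3 reach down to 0.24 and 0.15.

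By mean level the order was Axl (3.96 FPKM), Mrc1 (3.72), Fcrls (3.22), Cd163 (2.5), Folr2 (2.26), Gas6 (1.67), Olfml3 (1.56), Lyve1 (1.35), Mertk (0.940) and Siglec1 (0.804). In none of the 9 pairs of neighbours in this order was the mean log2 difference larger than its SD over the 6 libraries, so the order of neighbours is not settled. The largest difference between neighbours, of Mrc1 over Fcrls, was 0.37 ± 0.60 (SD) on the log2 scale.

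3 of the tested genes ranged over more than 1 on the log2 scale, Folr2 by 2.15, Fcrls by 2.44 and Olfml3 by 2.15, where 5.47% of all genes tested did so. For these the most similar genes were sought by the root mean square difference of centred log2 values over the 6 libraries. The nearest to Fcrls was C1qc, a chain of the complement starter C1q, at 14.2, 22.4 and 50.3 FPKM with CTLA4-Ig, against 23.1, 7.99 and 15.5 with control IgG (difference 0.27). It was followed by Il1b, the gene of the cytokine interleukin-1β (0.28), and by Olfml3 (0.29). The nearest to Olfml3 were Fcrls (0.29), Cbr2, a carbonyl reductase gene (0.37), and the chemokine gene Ccl12 (0.38). The nearest to Folr2 was 9030619P08Rik, at 2.01, 3.28 and 5.50 FPKM with CTLA4-Ig, against 1.13, 1.94 and 2.80 with control IgG (0.22). It was followed by the chemokine gene Ccl8 (0.33), at 1.32, 3.86 and 4.60 FPKM with CTLA4-Ig, against 1.04, 0.638 and 0.998 with control IgG, and by Il1b (0.36). Ccl8 had the smallest unadjusted p of the other resident macrophage genes, with a log2 fold change of 1.08 ± 0.33 (SE, n = 3 each; limma, Benjamini-Hochberg adjusted p = 0.7196).

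Genes of the microglia signature outside the 10 were in part high in the same library as Fcrls and Olfml3. CTLA4-Ig library 3 was the highest for 3 of 9 signature genes tested, where this held for 13.2% of all genes tested. Control library 1 was the highest for 3 as well, where this held for 2706 of all 10865 genes tested. Tmem119 stood at 4.55, 4.78 and 10.6 FPKM with CTLA4-Ig, against 6.12, 3.77 and 5.6 with control IgG. The purine receptor gene P2ry12 stood at 1.88, 2.2 and 7.20 FPKM with CTLA4-Ig, against 7.69, 1.45 and 1.84 with control IgG, high in the same 2 libraries as Mertk. Sall1, a transcription factor gene that defines microglia among macrophages, was at 0.931 FPKM in CTLA4-Ig library 3 and 0.457 FPKM in control library 1, and was listed at 0 in the other 4 libraries. Of the 9 signature genes tested, CTLA4-Ig library 3 and control library 1 were the highest 2 libraries for 3 (33.3%), where this held for 9.43% of all genes tested. The list and this pair of libraries were picked with values of these data known, so these shares are a description and no test. Of 9 signature genes tested 6 were positive and 3 negative in log2 fold change, with a median of 0.04 and 0 with an unadjusted limma p under 0.05. Tmem119, P2ry12 and Sall1 were singled out after their values were seen.

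Of 28 other listed resident macrophage genes, 22 were tested, with 17 positive and 5 negative, a median log2 fold change of 0.18 and 0 past the adjusted threshold in limma, and 1 (Ccl8) had an unadjusted p under 0.05. CTLA4-Ig library 3 was the highest library for 11 of the 22, where this held for 13.2% of all genes tested. This was not particular to these genes. That library was also the highest for 5 of 8 non-classical monocyte markers and 3 of 7 T and NK cell markers tested. It was so for 0 of 8 mononuclear phagocyte markers. The C1q genes were highest in CTLA4-Ig library 3 and lowest in control library 2: C1qa stood at 11.5, 19.3 and 50.2 FPKM with CTLA4-Ig, against 25.6, 7.96 and 11.9 with control IgG, and C1qb at 14.8, 26.9 and 51.8 with CTLA4-Ig, against 27.5, 9.96 and 16.4 with control IgG. Dab2, an endocytic adaptor gene, stood at 1.03, 2.05 and 2.81 FPKM with CTLA4-Ig, against 1.09, 0.740 and 1.38 with control IgG. Stab1 (stabilin-1) and Pf4 (platelet factor 4) were, like Mertk, high in CTLA4-Ig library 3 and control library 1, at 5.04 and 4.52 FPKM for Stab1 and 5.96 and 6.63 FPKM for Pf4. F13a1, which monocytes share, had a log2 fold change of -0.42 ± 0.19 (SE, n = 3 each).

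**Figure D4:**
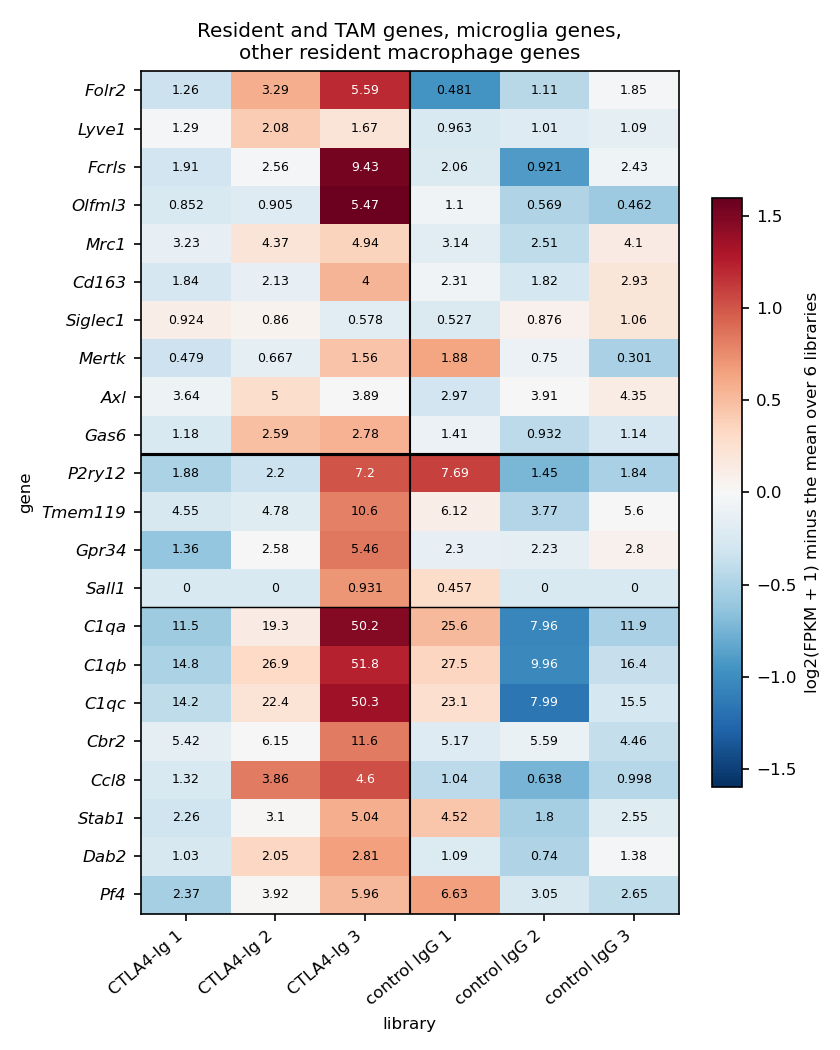
Values of log2(FPKM + 1) centred on the mean over 6 libraries (colour) with the FPKM printed, for the 10 genes (top), 4 microglia signature genes (middle) and 8 other resident macrophage genes (bottom), in the CTLA4-Ig libraries (left of the line) and the control IgG libraries (right). CTLA4-Ig library 3 is high for Fcrls, Olfml3, Tmem119 and the C1q genes, and control library 1 is high with it for Mertk, P2ry12, Stab1 and Pf4; the lower 2 blocks were picked after their values were seen.

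Genes of marrow and iron-recycling macrophages, where Siglec1 and Mertk are also used, had 4 of 7 tested members positive and 3 negative, with a median log2 fold change of 0.01. Slc40a1, the iron exporter ferroportin, stood at 27.7, 39.7 and 36.3 FPKM with CTLA4-Ig, against 24.0, 25.2 and 23.5 with control IgG, without overlap, a log2 fold change of 0.48 ± 0.13 (SE, n = 3 each; limma, Benjamini-Hochberg adjusted p = 0.7196). Vcam1, an adhesion molecule of marrow macrophages, stood at 15.7 to 19 FPKM with CTLA4-Ig, against 10.5 to 19.1 with control IgG. Spic, the transcription factor of iron-recycling macrophages, did not exceed 0.763 FPKM. Among the listed relatives of the 10 genes by family, Folr1 did not exceed 0.573 FPKM, and whether reads were shared between it and Folr2 is not known. Ly75, of the mannose receptor family and known from dendritic cells, stood at 16.1, 21.2 and 17.3 FPKM with CTLA4-Ig, against 12.6, 13.1 and 12.3 with control IgG, a log2 fold change of 0.48 ± 0.10 (SE, n = 3 each; limma, Benjamini-Hochberg adjusted p = 0.7196). Of 13 relatives tested 11 were positive and 2 negative, with a median of 0.08.

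Besides Axl, Mertk and Gas6, 13 TAM pathway genes were listed, of which 8 were tested, with 2 positive and 6 negative, a median log2 fold change of -0.08 and 0 with an unadjusted limma p under 0.05. Adam10 and Adam17, proteases that shed AXL and MERTK from the cell surface, stood at 45.4 to 49.9 and 29.8 to 32.6 FPKM with CTLA4-Ig, against 48.1 to 53.2 and 31.8 to 34.9 FPKM with control IgG. Ggcx, the carboxylase that activates GAS6 and protein S, stood at 2.62 to 4.03 FPKM with CTLA4-Ig, against 3.43 to 3.86 with control IgG. Of the feedback inhibitors that TAM signals induce, Socs1 stood at 2.33 to 4.26 FPKM with CTLA4-Ig, against 2.18 to 3.29 with control IgG. Socs3 stood at 4.62, 5.87 and 5.57 FPKM with CTLA4-Ig, against 23.5, 2.23 and 5.61 with control IgG, so that control library 1 was far above all others.

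Of 27 other genes for the clearance of apoptotic cells 22 were tested, with 14 positive and 8 negative and a median log2 fold change of 0.03. Itgb3, the integrin β3 chain, stood at 10.7, 11.4 and 11.6 FPKM with CTLA4-Ig, against 5.30, 10.1 and 8.65 with control IgG, a log2 fold change of 0.48 ± 0.20 (SE, n = 3 each), and Calr, the eat-me signal calreticulin, had -0.21 ± 0.09. Mfge8, another bridging protein for phosphatidylserine, stood at 4.60 to 6.93 FPKM with CTLA4-Ig, against 5.43 to 6.28 with control IgG. LXR and PPAR, nuclear receptors that raise Mertk in mouse macrophages, had with their targets 7 of 12 positive and 5 negative, with a median of 0.01. Pltp, a phospholipid transfer protein gene and LXR target, had 0.48 ± 0.23 (SE, n = 3 each), and the LXRβ gene Nr1h2 0.13 ± 0.06. Scavenger receptors other than Mrc1 and Cd163 had 5 of 11 positive and 6 negative, with a median of -0.06, -0.18 ± 0.09 for Scarb2 and 0.21 ± 0.11 for Olr1. In each of these lists 0 members passed the adjusted threshold in limma.

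Glucocorticoids raise Cd163, Mrc1 and Mertk in macrophages and interferons raise Siglec1 and Axl, so genes of both responses were listed. Of 10 glucocorticoid response genes 4 were positive and 6 negative, with a median log2 fold change of -0.28. Klf9 stood at 3.51, 2.26 and 5.73 FPKM with CTLA4-Ig, against 14.5, 4.90 and 2.74 with control IgG, and Ddit4 at 11.3, 5.33 and 15.0 with CTLA4-Ig, against 48.9, 13.2 and 12 with control IgG. Both were highest in control library 1 and next in CTLA4-Ig library 3, as was Mertk, while Cd163 and Mrc1 in control library 1 lay within the range of the other libraries. Klf9 and Ddit4 were picked after their values were seen. Those 2 libraries were the highest for 5 of the 10 listed genes, where this held for 9.43% of all genes tested. Fkbp5 and Tsc22d3 were not among them: control library 2 was next, at 64.4 and 102 FPKM, against 58.6 and 95.3 in CTLA4-Ig library 3. Cebpd had a log2 fold change of 0.19 ± 0.08 and Sgk1 0.28 ± 0.14 (SE, n = 3 each). Of 20 interferon-stimulated genes tested 14 were positive and 6 negative, with a median of 0.08 and 0 with an unadjusted limma p under 0.05. Isg15 stood at 9.32, 7.96 and 6.36 FPKM with CTLA4-Ig, against 1.34, 7.05 and 13.6 with control IgG. Its lowest value was in control library 1 and its highest in control library 3, as for Siglec1. Axl was also lowest in control library 1, at 2.97 FPKM, but highest in CTLA4-Ig library 2, at 5.00 FPKM. The part of either response in the values of the 10 genes was not tested.

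Markers of further cell types were also summed. Stromal cells express Gas6, Axl and Olfml3, and 11 stromal markers summed to 13.7 to 19.4 FPKM with CTLA4-Ig, against 9.97 to 22.0 with control IgG. The collagen gene Col1a1 stood at 3.48 to 4.48 FPKM with CTLA4-Ig, against 1.15 to 7.20 with control IgG, and Col1a2 at 2.68 to 3.40 FPKM with CTLA4-Ig, against 1.43 to 6.55 with control IgG. The stromal chemokine gene Cxcl12 stood at 1.32 to 4.15 FPKM with CTLA4-Ig, against 2.2 to 2.83 with control IgG, and Pdgfra, a receptor gene of fibroblasts, did not exceed 0.0661 FPKM. Sparc, listed as a stromal marker and also used by microglia, stood at 2.59, 4.22 and 8.33 FPKM with CTLA4-Ig, against 3.67, 3.33 and 3.71 with control IgG, highest in CTLA4-Ig library 3. Endothelial markers (12 genes) summed to 19.2 to 24.0 FPKM with CTLA4-Ig, against 16.5 to 20.9 with control IgG, most of it from Pecam1. Summed dendritic cell markers stood at 160 to 206 FPKM with CTLA4-Ig, against 147 to 216 with control IgG, and T and NK cell markers at 82.6 to 120 FPKM with CTLA4-Ig, against 97.2 to 108 with control IgG. B cell markers stood at 14.6 to 17.7 FPKM with CTLA4-Ig, against 14.0 to 20.0 with control IgG, and osteoblast markers at 14.2 to 14.5 with CTLA4-Ig, against 9.09 to 16.1 with control IgG. Most of the sum came from 1 gene each, Nkg7 for T and NK cells, Cd79b for B cells and Runx2 for osteoblasts. Erythroid markers stood at 83.2 to 125 FPKM with CTLA4-Ig, against 8.80, 147 and 126 with control IgG, lowest in control library 1. Classical monocyte markers were negative in 6 of 6 genes with a median log2 fold change of -0.24, and non-classical ones positive in 7 of 8 with a median of 0.14. The part of these cell types in the levels of the 10 genes was not tested.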

How the data were processed

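RNA-seq libraries of EGFP-positive calvarial cells (3 with CTLA4-Ig and 3 with control IgG) were grouped by the treatment label. The submitters' processing notes name Cuffnorm 2.2.1, TopHat2 2.0.13, SAMtools 0.1.19, Bowtie2 2.2.3 and build mm10. No source used here gives their settings, the annotation or whether strand was used. The authors deposited FPKM values scaled between libraries, 1 per gene name.

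The 10 genes and all lists were chosen with earlier results of these data known. Values were tested as log2(FPKM + 1), a pseudocount of 1, with limma 3.58.1 in R 4.3.3 (trended prior, 1 factor for group), where the mean was 1 FPKM or more, with Benjamini-Hochberg adjustment over all genes and a threshold of 0.05. SEs of Mertk and Siglec1 come from the same fit without the filter. The fit was tested on simulated data. Of the 21 other lists, the 2 genes with the smallest unadjusted p were eligible to be named, with the markers that define a cell type; further genes were named after their values were seen. Of 262 listed genes 259 were matched, 7 of them by an older symbol in the RefSeq table (GRCm38.p6), which also gave coordinates.

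The deposited FPKM tables hold no counts. The depth was read from low values of genes with a single transcript over 2000 bases, with 200 bases taken off its length; 36 to 44 of these values per library lay at 1 fragment, so fragment numbers are approximate. Python 3.11.15, matplotlib 3.10.9, numpy 2.4.6 and pandas 2.3.3 served for tables and figures. The level of 1 listed gene, and a sum that rests on it, are not reported here.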

Additional observations from a re-analysis of the deposited data

How the results depend on the processing

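Of 180 values of the 10 genes recomputed under 18 alternatives, 1 moved by more than 1 SD of the replicates. It was the log2 fold change of Lyve1 with a pseudocount of 0.1 (0.65, against 0.40). Changes of the filter, the prior or the block cannot move a log2 fold change here, so those values were fixed in advance. The SD is also wide where 1 library stands apart. Thus Olfml3 went from 0.75 to 0.15 and Cd163 from 0.09 to -0.16 without CTLA4-Ig library 3, and neither counted as moved. The median over the tested genes ranged from 0.24 to 0.51 without single libraries and from 0.34 (no filter) to 0.72 (pseudocount of 0.1) otherwise, against 0.46. With a mean of at least 5 FPKM none of the 10 genes was left. The number of genes without overlap was 1 in the other 11 alternatives with 6 libraries, and 1 to 5 without single libraries, where smaller groups overlap less. It was 5 of 9 tested without CTLA4-Ig library 1, 3 of 8 without control library 1 and 3 of 9 without control library 3. The share over all genes was not computed for these smaller groups, so these counts cannot be set against a background. No gene was called with all 6 libraries in the 12 limma alternatives; leaving out single libraries gave 0 to 6 calls (6 without CTLA4-Ig library 3), 12 in all, of which 11 were small RNA names and 0 were among the 10 genes. Rescaling to equal mononuclear phagocyte markers moved the median log2 fold change of all genes to 0.09, and that of the 8 genes to 0.53, and gave 0.03 for Siglec1 and 0.02 for Mertk, against -0.02 for both. A replicate block gave 0 calls and 619 genes at an unadjusted limma p under 0.05, against 659. Same-numbered libraries did not deviate together (correlations of -0.15, -0.09 and -0.02 across genes). Whether the numbers pair the samples is not known, since the labels do not say and 3 libraries per group cannot decide it. Depth limits the lowest genes: Folr2 rests on about 5 fragments in control library 1 and Mertk on about 12 in control library 3.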
